A study of Mus musculus with 6 samples.

Results

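The genes described here are 10 that restrain the cell cycle or belong to the p53 pathway: the cyclin-dependent kinase inhibitors Cdkn1a, Cdkn1b, Cdkn1c, Cdkn2a, Cdkn2b and Cdkn2c, the transcription factor Trp53, its antagonist Mdm2, and the p53 targets Ccng1 and Gdf15. They were taken by gene symbol, without regard to their values, from an expression table of 28987 genes, and each of the 10 had a row. The table holds RNA-seq of cardiac fibroblasts sorted for EGFP from mouse ventricles, with 3 control libraries (replicates 2, 3 and 4) and 3 libraries labelled Hsp47-deleted (replicates 1, 2 and 3). All animals carried a MerCreMer cDNA knocked into the Postn locus and a Rosa26 EGFP reporter (R26eGFP), received tamoxifen, and had pressure overload by transaortic constriction (TAC) at an age of 8 to 10 weeks, with cells collected 4 weeks later. The Hsp47-deleted animals also carried loxP-targeted Hsp47 alleles. Cre and EGFP therefore mark only cells in which the Postn promoter has been active, the myofibroblast lineage of the injured heart, and Cre is present in both groups. Nothing in the labels says that each library came from a separate animal, so p-values measure the spread between these libraries.

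Cyclin-dependent kinase inhibitors hold cells in G1. The CIP/KIP proteins, encoded by Cdkn1a (p21), Cdkn1b (p27) and Cdkn1c (p57), bind cyclin-kinase complexes, whereas the INK4 proteins, encoded by Cdkn2a, Cdkn2b and Cdkn2c, bind Cdk4 and Cdk6 and keep cyclin D away. p53 is controlled mostly at the level of its protein, which the ubiquitin ligase Mdm2 marks for degradation, and Mdm2 is itself a p53 target. Once stabilized by DNA damage or other stress, p53 switches on Cdkn1a, Mdm2 and Ccng1. Cdkn1a, Gdf15 and many other p53 targets also answer to p53-independent signals such as TGF-β and the integrated stress response, the Atf4 program that follows amino acid shortage or endoplasmic reticulum stress.

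p53 binds DNA as a pair of 10-base units, so the 250 bases upstream of each annotated start were searched for that unit by its consensus, which reads alike on both strands. RefSeq promoter entries (GRCm38.p6) were matched for 9 of the 10 genes, with 13 starts, and 4 of the 13 windows (30.8%) held at least 1 unit, against 2338 of 32817 windows over all listed starts (7.12%). Among the 13 windows, only 1 of the 2 Cdkn1a windows held a pair with at most 13 bases between them. That arrangement was found in 21 of the 32817 windows (0.064%). The window of the other Cdkn1a start (chr17:29093519-29093768) held no unit. The 4 matches are shown because they mark which of these genes carry the motif next to their start, with capitals for the units. The stretches lie at chr17:29090729-29090978 on the plus strand (Cdkn1a, whole window), chr11:69580259-69580318 on the plus strand (Trp53), chr10:117710910-117710969 on the minus strand (Mdm2) and chr11:40755437-40755496 on the minus strand (Ccng1).
Cdkn1a: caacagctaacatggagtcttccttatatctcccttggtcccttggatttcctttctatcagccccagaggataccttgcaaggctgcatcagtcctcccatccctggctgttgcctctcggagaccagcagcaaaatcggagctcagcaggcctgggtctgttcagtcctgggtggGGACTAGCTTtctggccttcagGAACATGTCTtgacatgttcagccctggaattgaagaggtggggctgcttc
Trp53: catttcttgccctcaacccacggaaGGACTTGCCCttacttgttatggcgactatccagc
Mdm2: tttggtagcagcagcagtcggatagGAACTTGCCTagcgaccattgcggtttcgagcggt
Ccng1: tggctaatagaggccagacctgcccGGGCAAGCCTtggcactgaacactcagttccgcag
The Cdkn1a units began 73 and 51 bases upstream of the first of its 2 listed starts, with 12 bases between them. Only exact matches were marked. The 10 bases right after the Cdkn1a unit at 51 miss the consensus at their first base alone and so are not in capitals. The single units began 75 (Trp53), 186 (Mdm2) and 185 (Ccng1) bases upstream. A match of letters is not evidence of binding, and no match in this window says nothing about p53 elsewhere in a gene. The list was chosen to hold p53 and its targets, so its share of matches is not a result of these libraries.

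Before the genes are compared, the libraries need a description. The targeted transcript, Serpinh1 (Hsp47), stood at 7.60, 6.28 and 6.10 (log2) in control 2, 3 and 4 and at 6.87, 6.67 and 6.66 in Hsp47-deleted 1, 2 and 3, a difference of 0.07 (SE 0.43, limma, Benjamini-Hochberg adjusted p = 0.947), so over the 6 libraries the group names rest on the labels. Against control 2 alone the Serpinh1 difference was -0.87, with 1 library in the control arm (limma adjusted p = 0.754, the spread borrowed from the Hsp47-deleted libraries). Control 3 and 4 were sequenced in a first run, and control 2 with all 3 Hsp47-deleted libraries in a second, so run and genotype are told apart only through control 2. Mitochondrially encoded genes took 23.5 to 29.4% of the summed values in controls and 4.70 to 7.23% in Hsp47-deleted libraries, and the median difference over all 15109 genes tested was 0.355 on the log2 scale. Fibroblast markers were present (10 of 10 above 1 in every library, summing to 9023 to 11870 in controls and 13600 to 15180 in Hsp47-deleted libraries). Within that list Postn, whose promoter drives the Cre, stood at 57.0 to 68.5 in controls and 1188 to 1451 in Hsp47-deleted libraries (linear), and Tcf21, a resident fibroblast factor, at 26.9 to 87.4 and 154.3 to 202.5. Leukocyte markers summed to 165.6, 47.7 and 84.6 in control 2, 3 and 4 and to 155.8 to 201.4 in Hsp47-deleted libraries. Ptprc was listed at 0 in all 6 libraries. In the same order, cardiomyocyte markers summed to 245.6, 96.7 and 46.7 and to 170.6 to 285.3. Erythroid markers summed to 341.9, 82.4 and 13.3 and to 81.1 to 136.3. Endothelial markers summed to 563.7 in control 2, 168.9 in control 3 and 57.2 in control 4 and to 231.2 to 534.8 in Hsp47-deleted libraries, and mural markers to 163.4 to 287.7 and 110.9 to 168.9. The part of run, mitochondrial share, Postn level and other cells in the results below was not tested beyond the values given. In bulk samples fewer expressing cells and less RNA per cell cannot be told apart.

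Cdkn1a had the clearest difference among the 10 genes, with Hsp47-deleted libraries about 3.6 times higher, while the differences of Trp53, Mdm2 and Ccng1 were within the spread between libraries. Values are log2(value + 1) as deposited, in a linear unit that the sources used here do not name, so each gene is compared between libraries and not with other genes. Of the 10 genes, 9 passed the filter of a linear mean of at least 1, and each of these 9 was above 1 in every library. None of the 9 passed a Benjamini-Hochberg adjusted p of 0.05 by limma, a threshold that 0.245% of all genes tested passed. At an unadjusted p under 0.05, 2 of the 9 were higher (Cdkn1a and Cdkn2b), against 14.5% of all genes, and 0 were lower, against 0.755%. In 4 of the 9 every Hsp47-deleted library lay above every control (Cdkn1a, Cdkn1b, Cdkn2b and Gdf15), against 18.3% of all genes. In 0 the reverse held, against 1.5%. With each library centred on its median, Cdkn1a stayed apart, but Cdkn1b, Cdkn2b and Gdf15 overlapped. Centred Cdkn1b was 0.526 in control 2 and 0.382 in Hsp47-deleted 3. Centred Cdkn2b was -0.892 in control 3 and -0.906 in Hsp47-deleted 1. Centred Gdf15 was -0.9445 in control 2 and -1.178 in Hsp47-deleted 1. The share of all genes without overlap was not counted after centring. The median difference of the 9 was 0.82, against 0.355 over all genes tested, and 8 of the 9 differences were positive, as were 11250 of the 15109. That median was 0.41 with centring, 0.40 with quantile normalization and 0.42 with rescaling to the sum outside mitochondrial genes, and 0.61 against control 2 alone.

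**Figure D1:**
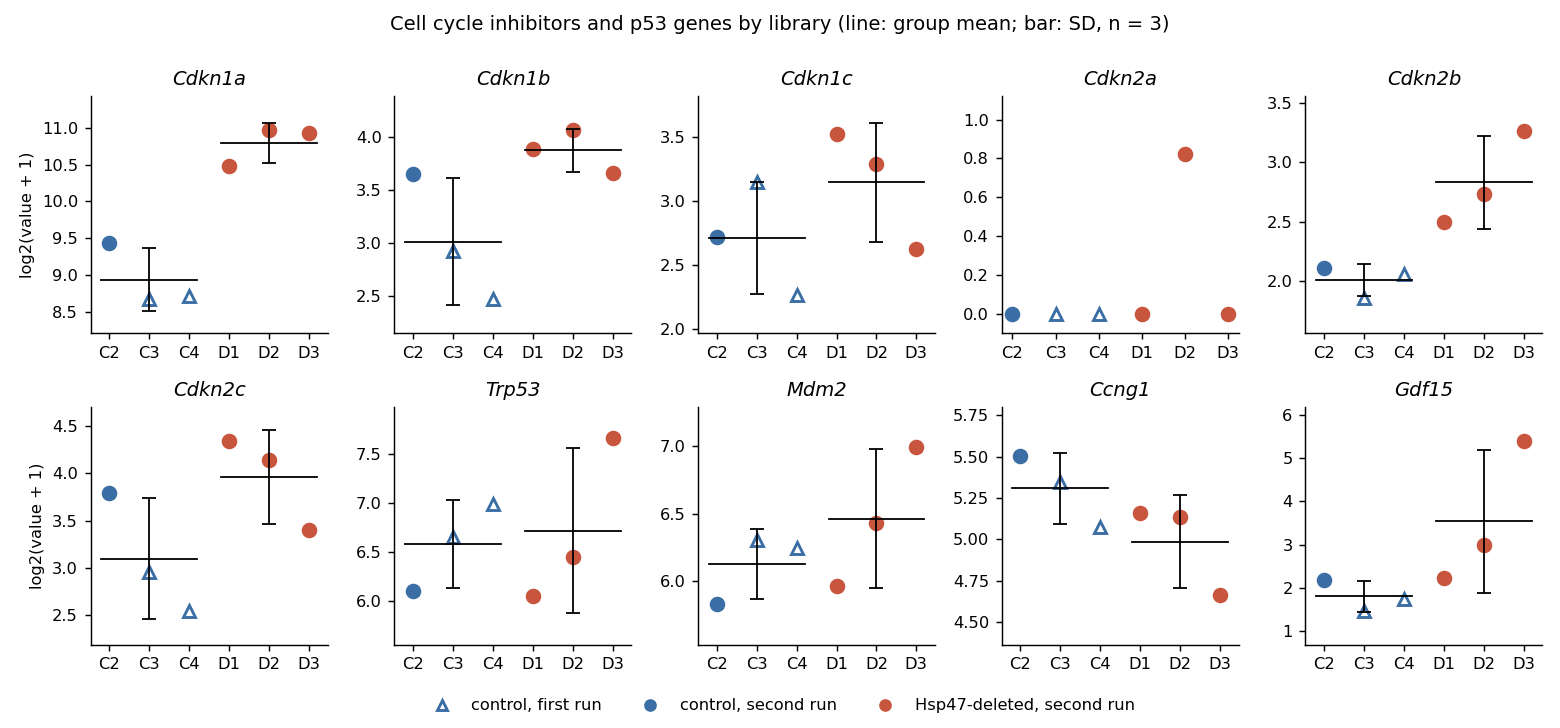
Log2(value + 1) of each of the 10 genes in the 6 libraries, 1 panel a gene, with control and Hsp47-deleted libraries side by side and bars for the group mean ± SD (n = 3; no bar for Cdkn2a, listed at 0 in 5 libraries). The Cdkn1a groups stand apart, Hsp47-deleted 3 is far above the others for Gdf15, and the Trp53 and Mdm2 groups overlap.

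Cdkn1a (ENSMUSG00000023067; mm10 chr17:29090976-29100727, plus strand) encodes p21, the inhibitor through which p53 and TGF-β arrest cells. Its log2 values were 9.43, 8.67 and 8.71 in control 2, 3 and 4 and 10.49, 10.98 and 10.93 in Hsp47-deleted 1, 2 and 3. On the linear scale these were 688.6, 405.2 and 418.4 against 1441, 2023 and 1948. Every Hsp47-deleted library was thus above every control, with control 2 the nearest. The mean was 8.94 ± 0.43 in controls and 10.80 ± 0.27 in Hsp47-deleted libraries (SD, n = 3), a difference of 1.87 (SE 0.35, 95% interval 1.05 to 2.68) with an unadjusted limma p of 0.000766, rank 100 among 15109 genes, and a Benjamini-Hochberg adjusted p of 0.115. An exact two-sided permutation test gave p = 0.10, the smallest that 3 against 3 libraries allow. Against control 2, the only control of the same run, the difference was 1.37 (95% interval 0.41 to 2.34). That comparison had an limma adjusted p = 0.706, with the lone control assumed to vary like the other group. When the values were rescaled to the sum outside mitochondrial genes the difference was 1.38. The unadjusted p stayed under 0.05 in all 18 of the alternatives tried.

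The other CIP/KIP genes had smaller differences. Cdkn1b (ENSMUSG00000003031; mm10 chr6:134920401-134925513, plus strand), whose product p27 keeps resting cells out of the cycle, stood at 3.65, 2.92 and 2.47 in the controls and 3.89, 4.07 and 3.66 in the Hsp47-deleted libraries. The groups did not overlap, but only just, since Hsp47-deleted 3 (3.661) lay beside control 2 (3.654). The difference was 0.86 (SE 0.38, 95% interval -0.010 to 1.73, limma adjusted p = 0.331), and 0.22 against control 2. Cdkn1c (ENSMUSG00000037664; mm10 chr7:143458339-143461050, minus strand), an imprinted gene whose product p57 restrains growth in development, stood at 2.72, 3.15 and 2.27 against 3.52, 3.28 and 2.62. Its groups overlapped, with a difference of 0.43 (SE 0.38, 95% interval -0.45 to 1.32, limma adjusted p = 0.592). It was 0.017 with centring, 0.026 with quantile normalization and 0.010 with rescaling outside mitochondrial genes. An antisense gene, Gm44732, covers 60.6% of a Cdkn1c transcript, and AC167363.2 overlaps Cdkn1a on the opposite strand. Whether strand was used in quantification is not given in the sources used here, so reads of such pairs may not be told apart.

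Of the INK4 genes, Cdkn2b had the more regular difference. Cdkn2b (ENSMUSG00000073802; mm10 chr4:89306299-89311039, minus strand) encodes p15, which TGF-β induces to block cyclin D kinases. It stood at 2.11, 1.86 and 2.06 in the controls and 2.50, 2.73 and 3.26 in the Hsp47-deleted libraries, so the groups did not overlap and the controls lay close together. The difference was 0.82 (SE 0.33, 95% interval 0.05 to 1.59) with an unadjusted limma p of 0.0389 and an adjusted p of 0.315. It was 0.72 against control 2, but 0.43 after rescaling to the sum outside mitochondrial genes, where the unadjusted p was 0.209.

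Cdkn2c (ENSMUSG00000028551; mm10 chr4:109660876-109667189, minus strand) encodes p18, which acts in the same way as p15. Its values were 3.79, 2.96 and 2.55 against 4.34, 4.14 and 3.40, so control 2 lay within the range of the Hsp47-deleted libraries. The difference was 0.86 (SE 0.43, 95% interval -0.13 to 1.85, limma adjusted p = 0.366), and 0.17 against control 2. Cdkn2a (ENSMUSG00000044303; mm10 chr4:89274471-89294653, minus strand) encodes both p16 and the p53 activator p19Arf, used as marks of senescence, and its row does not separate them. It was listed at 0 in 5 libraries and at 0.82 (log2) in Hsp47-deleted 2, so it did not pass the filter and was not tested. A value of 0 can be a failed estimate in a table without counts.

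Trp53 had no difference larger than the spread between libraries. Trp53 (ENSMUSG00000059552; mm10 chr11:69580359-69591873, plus strand) stood at 6.10, 6.65 and 6.99 in the controls and 6.04, 6.45 and 7.65 in the Hsp47-deleted libraries, which span the whole range of the controls. The difference was 0.13 (SE 0.47, 95% interval -0.95 to 1.22, limma adjusted p = 0.905), and its sign turned to -0.35 after rescaling to the sum outside mitochondrial genes and to -0.34 without Hsp47-deleted 3. Its pseudogene Trp53-ps was listed at 0 in every library. These are levels of mRNA, and p53 protein was not measured here.

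Mdm2 (ENSMUSG00000020184; mm10 chr10:117688875-117710758, minus strand), the ubiquitin ligase that p53 induces against itself, stood at 5.83, 6.30 and 6.25 in the controls and 5.97, 6.43 and 6.99 in the Hsp47-deleted libraries. The groups overlapped, with a difference of 0.34 (SE 0.35, 95% interval -0.47 to 1.14, limma adjusted p = 0.652), close to the 0.355 of the median gene. The sign turned under centring on the median (-0.080), quantile normalization (-0.020) and rescaling outside mitochondrial genes (-0.15).

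Ccng1 was the 1 gene of the 9 whose difference was negative. Ccng1 (ENSMUSG00000020326; mm10 chr11:40748552-40755311, minus strand) encodes cyclin G1, a p53 target that brings a phosphatase to Mdm2. It stood at 5.50, 5.35 and 5.07 in the controls and 5.16, 5.14 and 4.66 in the Hsp47-deleted libraries, with control 4 below Hsp47-deleted 1 and 2. The difference was -0.32 (SE 0.29, 95% interval -1.0 to 0.36, limma adjusted p = 0.606). Rescaled to the sum outside mitochondrial genes it was -0.79, with an unadjusted limma p of 0.0362 and an adjusted p of 0.612.

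**Figure D2:**
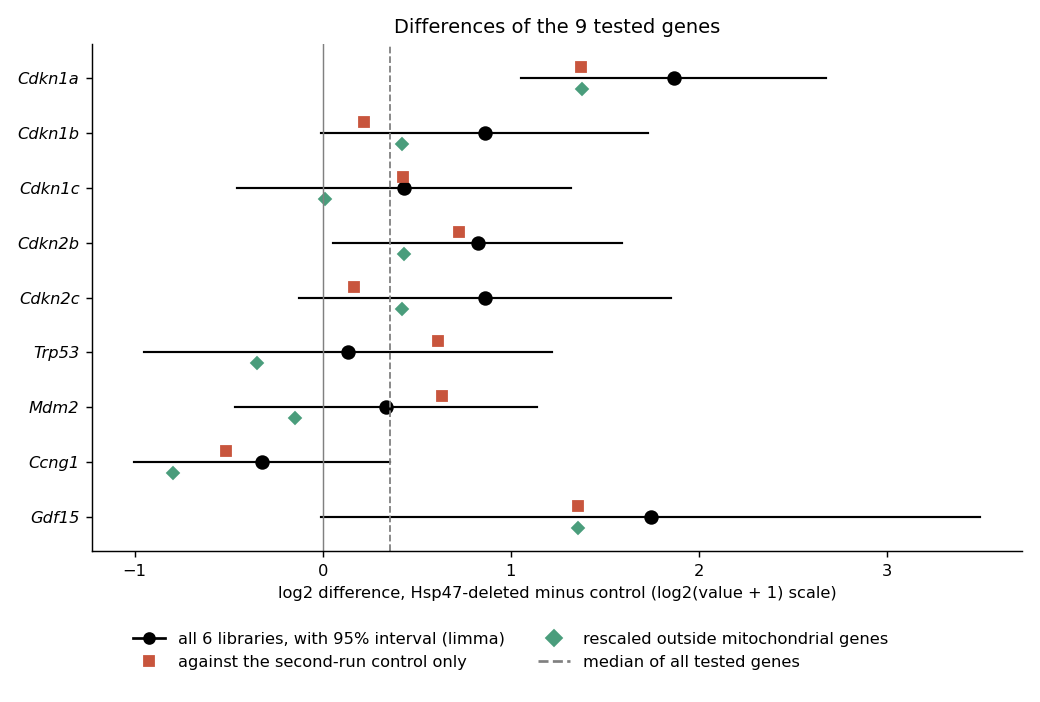
Difference in log2 value between Hsp47-deleted and control libraries for the 9 tested genes with its 95% interval, beside the same difference under other settings. The Cdkn1a interval (1.05 to 2.68) and the Cdkn2b interval (0.05 to 1.59) lie above 0, and those of the other 7 include it.

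Gdf15 differed most among the Hsp47-deleted libraries themselves. Gdf15 (ENSMUSG00000038508; mm10 chr8:70629393-70632456, minus strand) encodes a secreted stress cytokine of the TGF-β superfamily that acts on appetite. It stood at 2.18, 1.47 and 1.74 in the controls and 2.23, 2.99 and 5.41 in the Hsp47-deleted libraries, and the linear values were 3.54, 1.77 and 2.34 against 3.68, 6.95 and 41.4. The groups did not overlap, but Hsp47-deleted 1 lay beside control 2 and Hsp47-deleted 3 was far above the rest. The difference was 1.74 (SE 0.76, 95% interval -0.0072 to 3.50, limma adjusted p = 0.330), and 0.81 without Hsp47-deleted 3.

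The 9 genes lay on both sides when Hsp47-deleted 3 was set against the mean of Hsp47-deleted 1 and 2, a description made after the values were seen and given without a test. It was above that mean by 2.80 for Gdf15, 1.41 for Trp53, 0.79 for Mdm2, 0.65 for Cdkn2b and 0.19 for Cdkn1a. It was below for Cdkn2c (-0.84), Cdkn1c (-0.78), Ccng1 (-0.48) and Cdkn1b (-0.32). The other p53 targets as a list did not stand apart in that library, with a median of -0.082 against -0.076 over all genes tested. Their extremes, chosen for their values, were above for Sesn2 (2.43), Gadd45a (2.28) and Aen (1.88) and below for Btg2 (-1.82), Sesn1 (-1.59) and Phlda3 (-1.47).

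Integrated stress response genes were high in Hsp47-deleted 3, a library singled out after the values were seen. The shares below describe it without a test. Of 14 genes of that response, 12 had their highest value in Hsp47-deleted 3 (85.7%), against 23.5% of all genes tested and 6 of 23 other p53 targets (26.1%). Atf4, its central transcription factor, stood at 7.73, 8.02 and 7.90 in the controls and 8.24, 8.46 and 9.55 in the Hsp47-deleted libraries. Chac1, a glutathione-degrading Atf4 target, stood at 2.37, 4.82 and 5.87 against 2.24, 3.31 and 8.47, and Asns, asparagine synthetase, at 2.96, 6.14 and 6.57 against 2.43, 3.49 and 7.23. Chac1 and Asns were thus also higher in control 3 and 4 than in control 2. Over the groups, 3 of the 14 were higher at an unadjusted limma p under 0.05, where 14.5% of all genes were, and 0 were lower, where 0.755% of all genes were. Among the 3 were Ddit3, which encodes the stress factor CHOP (0.75, SE 0.31, limma adjusted p = 0.317), and Cebpb (0.84, SE 0.36, limma adjusted p = 0.324). The Cebpb groups overlapped. With centring the differences were 0.33 (Ddit3) and 0.42 (Cebpb), and neither passed the unadjusted limma threshold.

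**Figure D3:**
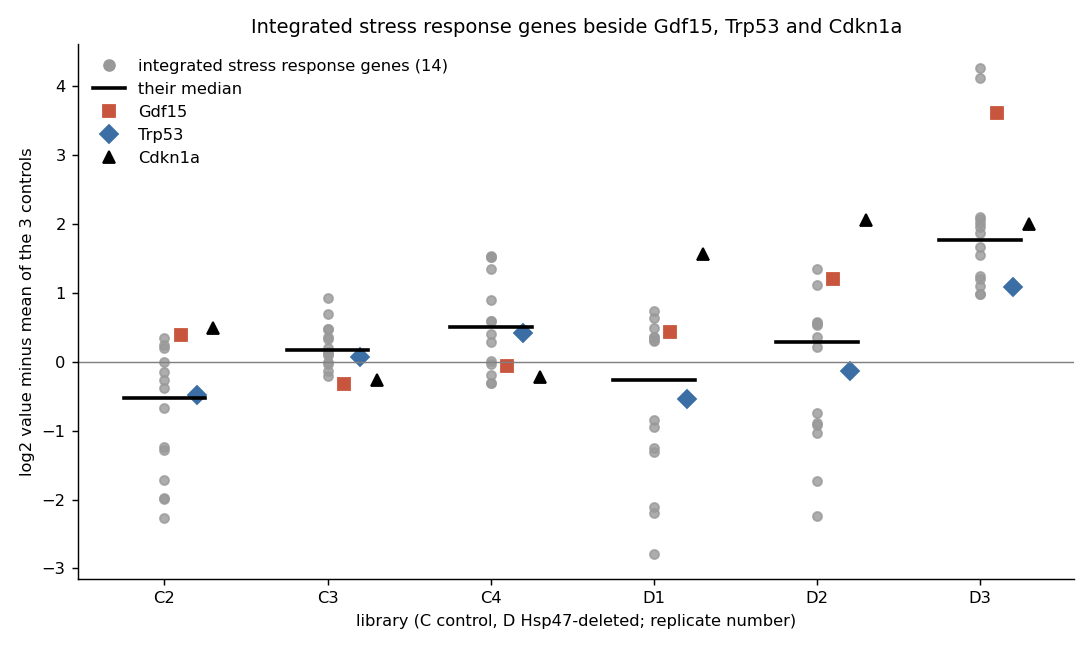
Log2 value minus the mean of the 3 controls in each library, for 14 integrated stress response genes (grey points, with their median as a bar) and for Gdf15, Trp53 and Cdkn1a. The median of the 14 is 1.76 in Hsp47-deleted 3 and -0.27 and 0.29 in Hsp47-deleted 1 and 2, while Cdkn1a is high in all 3.

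The wider set of p53 targets had a median difference near that of all genes. Of 26 listed, 24 were in the table and 23 were tested, of which 2 were higher at an unadjusted limma p under 0.05, 0 were lower and 21 did not pass, where 14.5% of all genes were higher and 0.755% lower. The median difference was 0.46, against 0.355 over all genes tested, and 0.21 against control 2 alone. It was 0.045 with centring and 0.11 with rescaling outside mitochondrial genes. Plk3, a stress kinase, stood at 4.39, 3.57 and 3.93 against 5.23, 6.03 and 5.55 with no overlap, a difference of 1.64 (SE 0.35, limma adjusted p = 0.162). Bbc3, which encodes the death-promoting protein PUMA, stood at 1.46, 0.42 and 1.33 against 2.38, 2.69 and 1.86, a difference of 1.24 (SE 0.41, limma adjusted p = 0.283).

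Several p53 targets divided the controls by sequencing run. Over all genes tested, control 2 correlated with Hsp47-deleted 1, 2 and 3 at 0.936, 0.924 and 0.872 (Pearson). With control 3 and 4 it correlated at 0.827 and 0.761. Hsp47-deleted 3, of the second run, correlated with control 3 and 4 at 0.869 and 0.841, nearly as with control 2. The libraries thus did not all divide by run. Btg2, an antiproliferative gene, stood at 6.99 in control 2 but 3.84 and 3.75 in control 3 and 4, and at 7.55, 7.35 and 5.63 in the Hsp47-deleted libraries. Phlda3, an inhibitor of Akt, stood at 5.22 against 1.85 and 1.54, and at 5.27, 4.89 and 3.61. Sesn1, a sestrin, stood at 4.53 against 2.45 and 2.65, and at 5.01, 4.84 and 3.33. In all 3 genes control 2 lay near Hsp47-deleted 1 and 2 and apart from control 3 and 4, which share its genotype label. The part of run in this split was not tested. Sesn2, Gadd45a and Aen divided the controls the other way. Sesn2 stood at 2.57 in control 2 against 4.20 and 4.25 in control 3 and 4. Gadd45a stood at 5.10 against 6.75 and 7.00, and Aen at 3.87 against 5.25 and 5.14. The Cdkn1a value of control 2 lay above those of control 3 and 4, but below each Hsp47-deleted library.

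**Figure D4:**
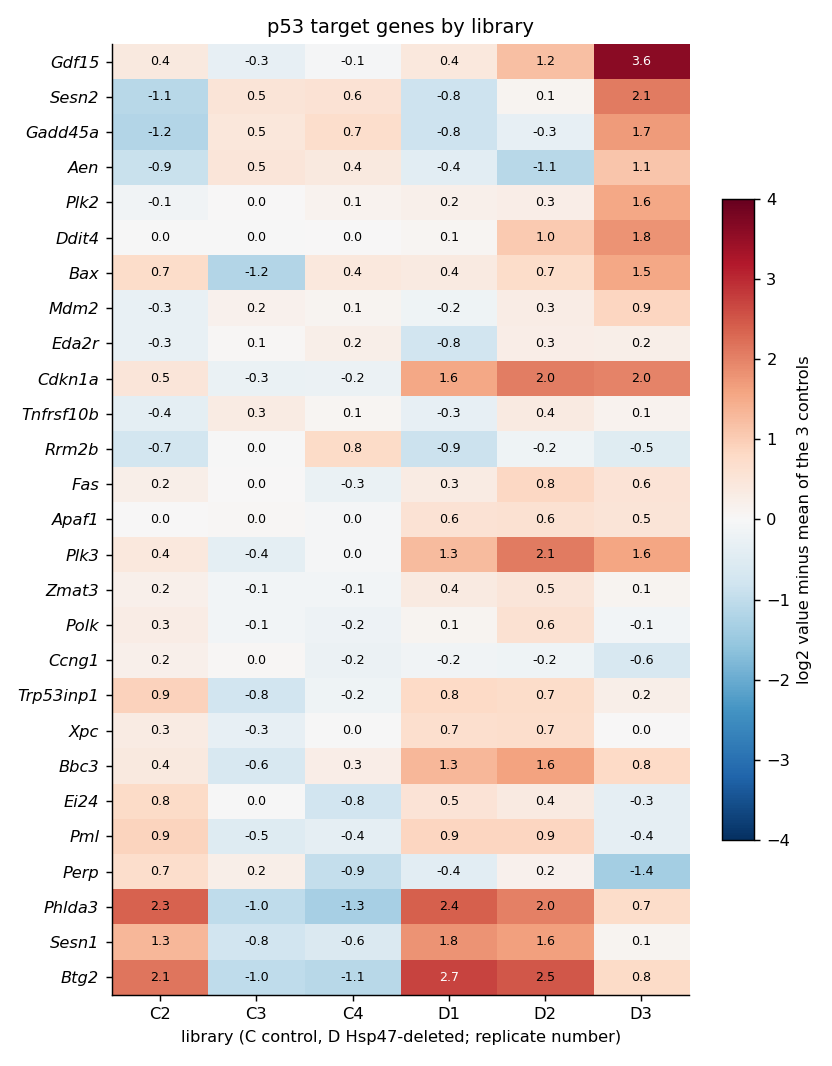
Log2 value minus the mean of the 3 controls for p53 targets (rows) in the 6 libraries (columns), with colour and number giving the difference. Control 2 shares the high values of Btg2, Phlda3 and Sesn1 with Hsp47-deleted 1 and 2, while Sesn2, Gadd45a and Aen are highest in Hsp47-deleted 3.

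Genes upstream and downstream of the inhibitors are read against the same shares of all genes, 14.5% higher and 0.755% lower. Of 14 p53 regulators, 2 were higher at an unadjusted limma p under 0.05 and 0 lower. They were Kat5, an acetyltransferase that acts on p53 (0.86, SE 0.34, limma adjusted p = 0.313), and Trp53bp1, a DNA damage adaptor (0.79, SE 0.32, limma adjusted p = 0.315). With centring their differences were 0.45 and 0.37, and neither passed the unadjusted limma threshold. None of 11 cyclins and CDKs passed in either direction, with a median of 0.24 that turned to -0.17 with centring and -0.11 with rescaling. In this list Ccna2, the S phase cyclin A2, had a difference of 0.92 (SE 0.45, limma adjusted p = 0.363). Cdk4, the kinase that INK4 proteins bind, had a difference of 0.68 (SE 0.42, limma adjusted p = 0.444). Against control 2 alone the Ccna2 difference was -0.010 and the Cdk4 difference -0.22. None of 7 other CDK inhibitors and p27 turnover genes passed, and their median of 0.23 turned to -0.19 with centring and -0.24 with rescaling. Skp2, the ubiquitin ligase part that removes p27, had a difference of 0.62 (SE 0.34, limma adjusted p = 0.400). Its partner Cks2 had a difference of 0.42 (SE 0.35, limma adjusted p = 0.567). Against control 2 alone the Skp2 difference was 0.63 and the Cks2 difference -0.079.

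None of 10 pocket proteins and E2F factors passed either, and their median of -0.32 lay below the 0.355 of all genes. E2f5, which acts with pocket proteins to repress cycle genes, stood at 3.40, 3.33 and 4.10 against 2.79, 2.75 and 3.16 with no overlap, a difference of -0.71 (SE 0.34, limma adjusted p = 0.353). With centring the E2f5 difference was -1.12 and with rescaling outside mitochondrial genes -1.14. In both it passed the unadjusted limma threshold, under which 526 of the 15109 genes were lower with centring and 569 with rescaling. Against control 2 alone the E2f5 difference was -0.49. E2f4, of the same kind, had a difference of 0.65 (SE 0.34, limma adjusted p = 0.387). The median of these 10 was 0.11 against control 2 alone and 0.12 without control 4, so its direction changed with the controls used. Of 15 proliferation markers 1 was higher at an unadjusted p under 0.05 and 0 lower, against 14.5% and 0.755% of all genes. The list had 13 of 15 positive differences, beside 11250 of 15109 over all genes, and its median of 0.43 was 0.013 with centring and -0.046 with rescaling. The gene that passed was Cdc20, an activator of mitotic exit, at 1.48, 0.91 and 1.05 against 2.09, 2.02 and 2.20. Its difference was 0.95 (SE 0.32, limma adjusted p = 0.286). With centring the Cdc20 difference was 0.54 and did not pass the unadjusted limma threshold. Mcm6, a subunit of the replicative helicase, had a difference of 0.75 (SE 0.32, limma adjusted p = 0.330).

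**Figure D5:**
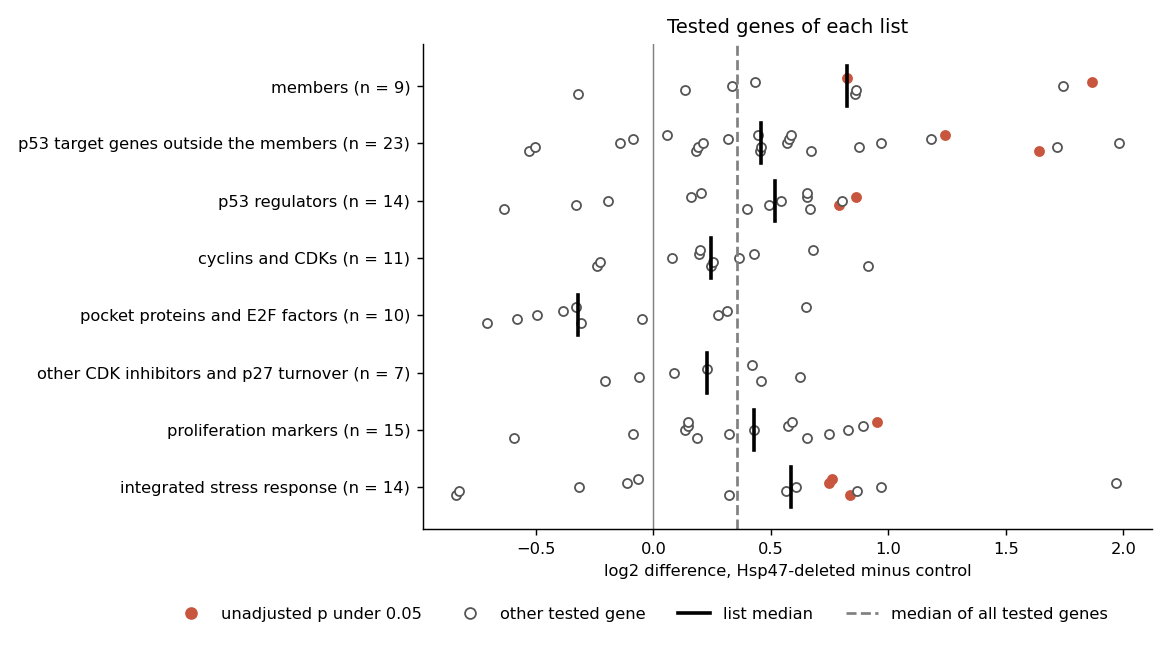
Differences in log2 value between Hsp47-deleted and control libraries for the tested genes of each list, 1 point a gene, with the list's median and the median of all tested genes. The medians run from -0.32 (pocket proteins and E2F factors) to 0.82 (the cell cycle inhibitors and p53 genes), against 0.355 for all genes, on values as deposited. With centring the medians of cyclins and CDKs (-0.17) and of other CDK inhibitors (-0.19) are negative.

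No other gene of the 10 followed Cdkn1a closely across the libraries. Likeness was the root mean square distance between log2 values centred on each gene's mean over 6 libraries. The nearest genes were Gm14251 (0.148), Psd (0.154) and Gm13770 (0.167). Of these, Gm14251 and Gm13770 were near the floor in controls 2, 3 and 4. Their linear values there were 1.14, 0.39 and 0.25 (Gm14251) and 0.40, 0 and 0 (Gm13770). Psd, which encodes an exchange factor for the GTPase Arf6, stood at 2.41, 1.55 and 1.79 in the controls and 3.12, 3.69 and 3.81 in the Hsp47-deleted libraries. The nearest of the 10 were Cdkn1b (0.562, rank 1383) and Cdkn2b (0.584, rank 1603).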

How the data were processed

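RNA-seq of 3 control and 3 Hsp47-deleted libraries was taken as the authors deposited it, as log2 values of (value + 1) for 28987 genes. The submitters' processing notes name kallisto and mm10 without a version, and the study names AltAnalyze. The values are not counts and their linear unit is not named, so depth is unknown and no counting interval is given. The authors' group means, fold changes and p-values in the same table were not used. Genes with a linear mean of at least 1 were tested (15109, leaving out 13878) with limma 3.58.1 in R 4.3.3 (empirical Bayes with a trend, no covariate, Benjamini-Hochberg adjustment). The code was tested on simulated data. Near copies were searched with minimap2 2.31-r1302. The 10 genes, 7 pathway lists and marker lists were chosen with earlier results of these data known. Named from each list were the 2 genes with the smallest p, and the 3 genes most like Cdkn1a. Others named by library were chosen after their values were seen. Alternatives were run covariate, second run alone, replicate block, filters, pseudocounts of 0.1 and 5, quantile normalization, centring, limma without trend or robust, and each library left out. Rescaling to the sum outside mitochondrial genes was added after the data were seen.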

Additional observations from a re-analysis of the deposited data

How the results depend on the processing

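The difference of Cdkn1a kept its sign in all 18 alternatives (1.37 to 2.11) with a range of 1.73 to 2.11 when 1 library was left out. It passed the adjusted threshold only without control 2 (2.11, limma adjusted p = 0.00395). Cdkn1b was also called only without control 2 (1.18, adjusted p = 0.0412). In that fit 2768 of the 15109 genes tested were called. Without control 2, all controls were of the first run and all Hsp47-deleted libraries of the second. Run and genotype cannot be told apart in that fit. Genes called at an adjusted limma p under 0.05 numbered 37, and 0 under the replicate block, 16 with a pseudocount of 0.1, 17 with quantile normalization, 18 with centring, 17 with rescaling outside mitochondrial genes, and 8 to 2768 with 1 library left out. Genes past an unadjusted p of 0.05 numbered 2302, and 1017 with run as a covariate, 936 in the second run alone, 1265 with quantile normalization, 1240 with centring, 1207 with rescaling, and 913 to 5300 with 1 library left out. These split into 2188 higher and 114 lower as deposited, 714 and 526 with centring, 690 and 575 with quantile normalization, and 638 and 569 with rescaling. Of the 9 genes, 2 passed the unadjusted threshold, and 1 with run as a covariate, in the second run alone and with quantile normalization, and 1 to 4 with 1 library left out. Signs reversed for Mdm2 (-0.020 with quantile normalization, -0.080 with centring, -0.15 with rescaling) and Trp53 (-0.26, -0.28 and -0.35 in the same order, and -0.34 to 0.47 with 1 library left out). The cause of these changes was not tested. The groups share only replicate numbers 2 and 3, whose deviations correlated at 0.156 and 0.228. With 2 such pairs the samples share only a number. The Cdkn1a difference with the replicate block was 1.91 (limma adjusted p = 0.473). Without counts, no depth limit could be set for low genes such as Cdkn2a.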
